A study of Mus musculus with 2 samples.

Results

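A set of 6 genes that mark the oligodendrocyte lineage was followed in single cells of mouse cortical neurospheres: *Olig1*, *Olig2*, *Pdgfra*, *Sox10*, *Cspg4* and *Nkx2-2*. They were chosen by symbol, with the near-universal detection of *Olig2* in these cells already known. Of the 6 genes, 5 are rows of the expression table of 10666 genes, and *Olig1* is not analysed here. A neurosphere is a ball of neural stem cells and their progeny that grows in suspension. The source tissue was dorsal telencephalon of C57BL/6 embryos, wild type, at embryonic day 14.5, and the cells were kept in DMEM-F12 with B27 without retinoic acid, N2, 1.42 g of glucose, and EGF and bFGF at 10 ng/ml each. There is 1 condition in 2 replicate cultures. Culture 1 gave 5748 cells, and 7057 came from culture 2. The labels do not say whether the cultures came from separate embryos. With 1 condition there are no groups to test, so no p-value is given and cells are not counted as replicates. The spread is that between the 2 cultures, and each share has an exact 95% binomial interval, which covers only the error of counting cells.

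*Olig2* and *Olig1* encode basic helix-loop-helix transcription factors that specify oligodendrocyte progenitors, and *Olig2* is also present in neural progenitors, including cells expanded in culture with bFGF. *Sox10* and *Nkx2-2* encode transcription factors of committed lineage cells. *Pdgfra*, the receptor for PDGF-A, and *Cspg4*, the NG2 proteoglycan, are the surface molecules by which oligodendrocyte progenitors are usually recognised. As such progenitors differentiate they lose *Pdgfra* and *Cspg4*, keep *Sox10* and gain myelin genes.

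Cells of culture 1 had a median of 19477 UMIs and 3445 genes, and cells of culture 2 a median of 14637 UMIs and 2833 genes. The authors had scaled the deposited values to the depth of the cell. The cultures share 48 cell barcodes, and leaving those cells out changed the share of no member by more than the spread between cultures. Within a gene and a culture the values, once depth was put back, sat on steps whose size differed between cultures. The commonest step of *Pdgfra* was 0.724 in culture 1 and 2.09 in culture 2, and that of *Sox10* was 0.709 and 2.93. Over 6156 genes detected in 1 to 35% of cells, the step differed by a median of 0.19 on the log2 scale, and 70.4% of genes differed by more than 0.1. A share of cells with a value above 0 does not depend on the size of a step, whereas a level does. Members were therefore compared between cultures by shares of cells, and levels were read only within a culture.

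The genes lie on different chromosomes of GRCm38, apart from *Olig2* and *Olig1*. *Olig2* (ENSMUSG00000039830) is at chr16:91225457-91228677 on the plus strand, and *Olig1* starts 41094 bases beyond its end, at chr16:91269772-91271933. *Pdgfra* (ENSMUSG00000029231) is at chr5:75152292-75198215 on the plus strand, *Cspg4* (ENSMUSG00000032911) at chr9:56865033-56899870 on the plus strand, *Sox10* (ENSMUSG00000033006) at chr15:79154908-79165240 on the minus strand and *Nkx2-2* (ENSMUSG00000027434) at chr2:147177546-147194243 on the minus strand. *Olig1* has a single exon in the annotation. Of 1331 protein-coding genes with a single exon, 2 are rows of the table (0.15%), against 10128 of 20620 genes with more exons (49.1%), and the authors used spliced counts as expression.

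Promoter windows of 300 bases, from 250 before to 50 after the start, were found in RefSeq for 4 of the 6 genes (GRCm38.p6). The windows of *Olig2*, the gene found in nearly every cell, and of *Pdgfra*, found in few, are shown 5′ to 3′ on the gene's strand, with capitals marking CANNTG, the E-box that basic helix-loop-helix factors bind, and TATAAA. Both strands were searched, and no match of one motif overlaps a match of the other. The window of *Olig2* is chr16:91225300-91225599 (plus strand) and that of *Pdgfra* is chr5:75152001-75152300 (plus strand).
Olig2: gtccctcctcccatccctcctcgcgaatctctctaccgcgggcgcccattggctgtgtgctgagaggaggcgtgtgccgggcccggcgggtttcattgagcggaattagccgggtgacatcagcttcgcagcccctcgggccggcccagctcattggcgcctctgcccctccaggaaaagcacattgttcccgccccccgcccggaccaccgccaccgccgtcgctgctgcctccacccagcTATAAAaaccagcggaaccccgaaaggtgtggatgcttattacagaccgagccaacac
Pdgfra: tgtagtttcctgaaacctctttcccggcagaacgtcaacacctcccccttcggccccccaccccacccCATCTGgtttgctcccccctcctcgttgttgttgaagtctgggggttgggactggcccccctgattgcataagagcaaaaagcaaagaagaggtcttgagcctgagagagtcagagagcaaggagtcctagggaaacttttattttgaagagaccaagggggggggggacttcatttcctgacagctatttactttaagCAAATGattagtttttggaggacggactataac
The *Olig2* window held 1 TATAAA and 0 CANNTG, and the *Pdgfra* window held 2 CANNTG and 0 TATAAA. The *Nkx2-2* window (chr2:147186353-147186652, minus strand) held 3 CANNTG, and the *Cspg4* window (chr9:56864854-56865153, plus strand) held neither motif. Of 32851 promoter windows of this length, 72.3% held CANNTG and 13.6% held TATAAA, so matches of the first are common. None of the 4 windows held ACAAAG, a core that SOX factors bind, which 18.7% of all windows hold.

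*Olig2* was found in nearly every cell of both cultures, *Nkx2-2* and *Cspg4* in a minority, and *Pdgfra* and *Sox10* in a small part that was larger in culture 1. *Olig2* had a value above 0 in 5590 cells of culture 1 (97.3%, interval 96.8 to 97.7%) and in 6483 cells of culture 2 (91.9%, interval 91.2 to 92.5%), a mean of 94.6% ± 3.81 (SD, n = 2). This placed it at rank 333 and rank 447 of the 10666 genes by share. *Nkx2-2* was found in 28.1% of cells of culture 1 (1616 cells) and 26.2% of culture 2 (1850 cells), a mean of 27.2% ± 1.34 (SD, n = 2). *Cspg4* was found in 11.8% (679 cells) and 13.7% (969 cells), a mean of 12.8% ± 1.36 (SD, n = 2).

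*Pdgfra* was found in 504 cells of culture 1 (8.77%, interval 8.05 to 9.53%) and in 128 cells of culture 2 (1.81%, interval 1.52 to 2.15%). *Sox10* was found in 245 cells (4.26%, interval 3.75 to 4.82%) and in 53 cells (0.751%, interval 0.563 to 0.981%). The share in culture 1 was thus 4.83 times that in culture 2 for *Pdgfra* and 5.68 times for *Sox10*. With a value of at least 1 in place of any value above 0, *Pdgfra* was found in 4.09% and 1.74% of cells and *Sox10* in 1.98% and 0.751%, ratios of 2.35 and 2.64. That threshold applies to the deposited values. In culture 1 it lies just above the median of the values above 0, at 0.953 for *Pdgfra* and 0.947 for *Sox10*. In culture 2 it lies below their lower quartile, at 1.49 and 2.40. Over all genes the median of the ratio for any value above 0 was 1.26 and 5 to 95% of genes lay between 0.835 and 2.17, so that 43 genes had a larger ratio than *Pdgfra* and 19 a larger one than *Sox10*. The ratio was 1.06 for *Olig2*, 1.07 for *Nkx2-2* and 0.86 for *Cspg4*. In order of share, *Olig2* stood above *Nkx2-2* and *Nkx2-2* above *Cspg4* in both cultures. *Pdgfra* and *Sox10* came last in both, and their means of 5.29% ± 4.92 and 2.51% ± 2.48 (SD, n = 2) do not differ beyond the spread between cultures, although *Pdgfra* was the more frequent in each.

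The shares of *Pdgfra* and *Sox10* also differed between the cultures among cells of equal depth. Among the 809 cells of culture 1 and 1472 of culture 2 with 15018 to 17565 UMIs, a range that both cultures fill, *Pdgfra* was found in 8.03% and 0.679% of cells, a ratio of 11.8, and *Sox10* in 2.97% (interval 1.91 to 4.38%) and 0.272% (interval 0.0741 to 0.694%), a ratio of 10.9. The ratios rest on 10 *Pdgfra* cells and 4 *Sox10* cells of culture 2, and the gap for *Sox10* was 2.69 percentage points here against 3.51 over all cells. In the same range *Olig2* was found in 96.3% and 92.7% of cells and *Cspg4* in 10.5% and 12.2%. *Nkx2-2* changed sides, with 22.1% of cells in culture 1 and 29.2% in culture 2. The range starts at the lower quartile of culture 1 and ends at the upper quartile of culture 2. Relative to each culture it thus takes shallower cells of culture 1 and deeper cells of culture 2. Shares also changed with depth within a culture, and the part of this in the ratios and in the change of sides was not tested.

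Over 10 classes of equal size by total UMIs, the members followed 2 patterns. The share of cells with *Olig2* climbed from 92.2% of the shallowest class of culture 1 to 99.8% of the deepest, and in culture 2 from 81.7% to 99.6%. *Nkx2-2* went from 21.7% to 44.8% and from 18.7% to 41.8%. *Cspg4* stayed between 9.39% and 12.5% in the first 9 classes of culture 1 and reached 23.0% in the deepest, and in culture 2 it reached 25.4% there. For these 3 genes the deepest class therefore had the highest share.

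*Pdgfra* and *Sox10* instead were most often found at both ends of the depth range. In culture 1 *Pdgfra* was found in 17.7% of the shallowest cells, in 4.0% of the cells of the eighth class, and in 13.9% of the deepest. *Sox10* was found in 8.52%, 2.26% and 7.32% of the cells of the same classes. In culture 2 *Pdgfra* was found in 3.26% of the shallowest cells, in 0.708% of the sixth class and in 6.24% of the deepest, and *Sox10* in 1.42%, 0.283% and 2.98%. The deepest class can hold droplets with more than 1 cell, whose part in the shares was not tested. Without it *Pdgfra* was found in 8.19% and 1.32% of cells and *Sox10* in 3.92% and 0.504%.

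**Figure D1:**
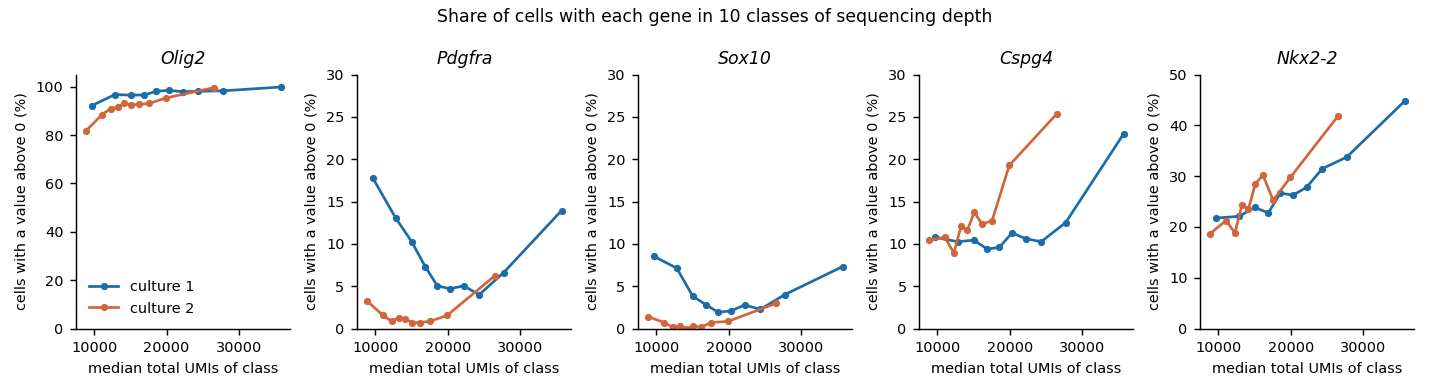
Share of cells with a value above 0 (y axis, percent) against the median total UMIs of 10 depth classes of equal size (x axis, UMIs per cell), for each gene, in culture 1 (blue) and culture 2 (orange); y axes differ between panels. *Olig2*, *Nkx2-2* and *Cspg4* are highest in the deepest class, whereas *Pdgfra* and *Sox10* are high at both ends, from 17.7% through 4.0% to 13.9% for *Pdgfra* in culture 1.

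Most cells held *Olig2* with none of the other 4 members. This was so for 3228 cells of culture 1 (56.2%) and 4035 of culture 2 (57.2%). The next most frequent combination was *Olig2* with *Nkx2-2* alone, in 1190 cells (20.7%) and 1455 cells (20.6%). All 5 members were found together in 10 cells of culture 1 and 4 of culture 2, and these cells were deep, with median UMIs of 30871 and 34336. No member was found in 100 cells (1.74%) and 380 cells (5.38%), which were shallower than most, with median UMIs of 15666 and 12626.

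*Pdgfra*, *Sox10* and *Cspg4* were found together in the same cells more often than in cells of the same depth that lacked the partner gene, in both cultures. Of cells with *Pdgfra*, 72 in culture 1 (14.3%, interval 11.3 to 17.6%) and 18 in culture 2 (14.1%, interval 8.55 to 21.3%) also held *Sox10*. Cells without *Pdgfra*, weighted to the same depth classes, held *Sox10* in 4.45% and 1.03% of cases. Were the genes independent in each culture, 21.5 and 0.961 cells would have held both. The proportion of *Pdgfra* cells with *Sox10* was thus close to equal in the cultures although the number of such cells was not.

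*Cspg4* was found in 22.8% of *Pdgfra* cells of culture 1 and 26.6% of culture 2, against 11.5% and 16.4% of other cells of the same depth. It was found in 23.3% and 37.7% of *Sox10* cells, against 12.2% and 17.4%. Read from the other side, most *Cspg4* cells lacked the other markers of progenitors: 16.9% of them held *Pdgfra* in culture 1 and 3.51% in culture 2, and 8.39% and 2.06% held *Sox10*. Without the deepest class of cells, the difference in *Cspg4* between *Pdgfra* cells and other cells of the same depth was 10.6 and 6.86 percentage points, and that in *Sox10* was 8.09 and 12.6 points. The difference in *Cspg4* between *Sox10* cells and other cells of the same depth was then 7.37 and 15.4 points, against 11.1 and 20.3 with all cells.

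*Nkx2-2* did not follow *Pdgfra* in the same direction in both cultures. It was found in 33.7% of *Pdgfra* cells of culture 1 against 27.3% of other cells of the same depth, and in culture 2 in 23.4%, where its difference from the others was -6.52 points and the interval of 16.4 to 31.7% holds their share. With *Sox10* the direction was shared: *Nkx2-2* was found in 37.6% of *Sox10* cells against 28.1%, and in 39.6% against 30.6%. The interval in culture 2, 26.5 to 54.0%, holds the share of the other cells.

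*Olig2* was found in similar shares of cells with and without *Pdgfra* and *Cspg4*. It was found in 97.4% and 93.0% of *Pdgfra* cells, against 96.6% and 92.8% of others of the same depth, and in 97.5% and 91.3% of *Cspg4* cells, against 97.6% and 93.2%. Among *Sox10* cells the cultures went opposite ways, with 95.5% against 96.8% in culture 1 and 98.1% against 93.1% in culture 2. In all, 491 of 504 *Pdgfra* cells and 119 of 128 held *Olig2*.

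**Figure D2:**
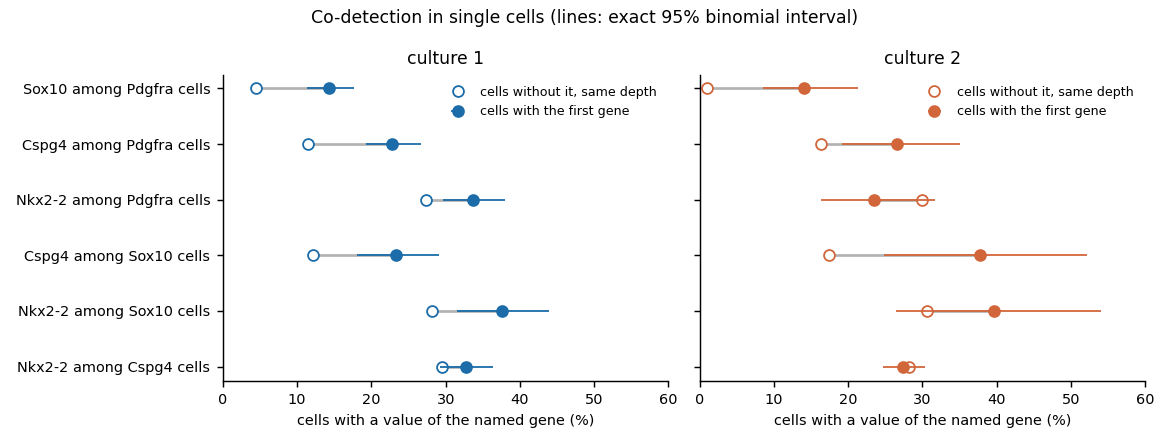
Percentage of cells with the named gene (x axis) among cells with the first gene of each pair (filled, with exact 95% binomial intervals) and among other cells weighted to the same depth (open), for culture 1 (left) and culture 2 (right). The filled point lies to the right of the open one in both cultures for *Sox10* and *Cspg4* among *Pdgfra* cells and for *Cspg4* and *Nkx2-2* among *Sox10* cells, and changes sides for *Nkx2-2* among *Pdgfra* and *Cspg4* cells.

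The genes that accompanied each member were sought over the whole table, as genes whose share of cells was higher or lower by 5 or more percentage points in cells with the member than in other cells of the same depth, in both cultures. For *Pdgfra* 484 genes were higher (4.54% of 10665) and 414 lower (3.88%), with a median difference over all genes of 0.112 points in culture 1 and 0.181 in culture 2. Genes were ranked by the smaller of the differences in the 2 cultures, and the first were *Lhfpl3*, found in 79.6% of *Pdgfra* cells against 44.2% in culture 1 and in 66.4% against 29.6% in culture 2, and *Cntn1*, which encodes the adhesion molecule contactin-1, found in 80.6% against 46.8% and in 62.5% against 25.8%. *Sh3gl3* (50.4% against 19.3%, and 39.8% against 10.2%) and *Sox6* (71.8% against 44.0%, and 57.0% against 29.5%) came next. *S100a11* led the lower genes, with 39.7% against 71.3% and 60.2% against 87.4%, followed by *Ctsc*, which encodes the protease cathepsin C, and *Car2*, which encodes carbonic anhydrase 2.

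For *Sox10* 673 genes were higher (6.31%) and 562 lower (5.27%), with the caution that culture 2 gave 53 cells. *Sh3gl3* led, in 62.9% of *Sox10* cells against 20.4% in culture 1 and in 60.4% against 11.2% in culture 2. *Tnr*, the matrix glycoprotein tenascin-R, was found in 61.2% against 15.8% and in 47.2% against 5.29%. *S100a11* (44.9% against 69.9%, and 60.4% against 87.3%) again ranked first among the lower genes.

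Far fewer genes passed with *Cspg4* and *Nkx2-2*, which were found in more cells than *Pdgfra* and *Sox10*. For *Cspg4*, 10 genes were higher (0.0938%) and 5 lower (0.0469%). The 3 of them that belong to the list of progenitor genes were *Cntn1*, *Scrg1* and *Lhfpl3*, and *Lhfpl3* was found in 57.4% of *Cspg4* cells against 40.8% in culture 1 and in 31.4% against 25.5% in culture 2. *Lfng*, which encodes a glycosyltransferase that modifies Notch, led the lower genes with 53.5% against 64.0% and 47.8% against 56.2%. For *Nkx2-2*, 1 gene was higher, *Lmo1* (0.00938%), and 1 lower, *Gpd2* (0.00938%). The call is a fixed difference with no error term, and shares over few cells scatter more. The counts therefore also depend on the number of cells with a member and do not rank the members.

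For *Olig2*, 190 genes were higher (1.78%) and 90 lower (0.844%) than in the 158 cells of culture 1 and 574 of culture 2 without it. *Mmp15*, a membrane-bound matrix metalloproteinase gene, led, in 72.9% against 59.0% and in 60.6% against 46.9%. *Pdgfa*, which encodes the ligand of the *Pdgfra* receptor, was lower, in 43.1% against 51.7% and in 46.7% against 56.2%. The cells without *Olig2* were weighted to the depth classes of the cells with it. In the deepest class 99.8% of 574 cells of culture 1 and 99.6% of 705 of culture 2 held *Olig2*. The few cells without it there stand for that whole class, so they weigh heavily in these counts and differences. Without the deepest class of cells the counts were 51 higher and 18 lower. Cells without *Olig2* had median UMIs of 15577 and 12960, against 19570 and 14779 in cells with it.

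By role, the genes of the oligodendrocyte lineage moved with *Pdgfra* and *Sox10* in different proportions. Of 17 other progenitor genes in the table, 9 were higher and 1 lower in *Pdgfra* cells, with a median difference of 5.94 points in culture 1 and 6.77 in culture 2. The 9 include *Vcan*, a matrix proteoglycan gene (45.6% against 24.0%, and 32.8% against 15.7%), *Cacng4* (68.7% against 45.9%, and 60.2% against 33.5%) and *Dll3*, a Notch ligand gene found in 43.8% and 28.9% of *Pdgfra* cells. The lower gene was *Sulf2*, a sulfatase gene (45.8% against 55.1%, and 54.7% against 59.9%). In *Sox10* cells 9 of the 17 were higher and 0 lower.

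Of 7 genes of committed precursors, 0 passed in *Pdgfra* cells and 4 were higher in *Sox10* cells. They were *Bcas1* (43.3% against 11.4%, and 24.5% against 4.92%), *Itpr2*, *Tns3* and *Sirt2* (86.9% against 73.1%, and 77.4% against 62.8%). Of 5 myelin genes, 2 were higher in *Pdgfra* cells, *Cnp* and *Ugt8a*, and 4 in *Sox10* cells. In *Sox10* cells *Mbp*, which encodes myelin basic protein, was found in 22.4% against 4.81% and in 17.0% against 0.973%. *Cnp*, which encodes a phosphodiesterase of myelin, was found in 78.8% against 48.0% and in 58.5% against 34.3%. *Ugt8a*, the enzyme for galactosylceramide, was found in 35.9% against 7.89% and in 20.8% against 1.72%, and *Cldn11*, the tight junction protein of myelin, in 36.7% against 8.0% and in 11.3% against 0.43%.

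Of 14 regulators in the table, 4 were higher and 2 lower in *Pdgfra* cells. The higher ones were *Sox9* (89.9% against 73.9%, and 80.5% against 50.7%), *Sox6*, *Id2* and *Chd7*, and the lower ones were *Id3* (59.5% against 68.7%, and 85.2% against 92.9%) and *Hes1*, a Notch target (23.4% against 41.4%, and 39.1% against 53.4%). In *Sox10* cells 4 were higher and 4 lower. *Sox8*, a close relative of *Sox10*, was among the higher ones (49.4% against 34.2%, and 41.5% against 29.9%), and *Nfia* and *Nfib* were among the lower. Of 8 genes of the hedgehog pathway, which acts upstream of *Olig2* in the ventral brain, the receptor gene *Ptch1* was higher with *Pdgfra* (42.3% against 34.4%, and 27.3% against 21.8%) and 0 passed with *Sox10*. The median difference of the 8 hedgehog genes with *Pdgfra* was 0.0903 points in culture 1 and 1.04 in culture 2. Of 3 genes of the PDGF pathway 0 passed with either. Over all genes 4.54% were higher with *Pdgfra* and 6.31% with *Sox10*. Counts in lists this short are not read as results about either pathway. With *Olig2*, 2 regulators, 3 progenitor genes and 0 hedgehog genes were higher, with the limit that few cells of the deepest class lacked *Olig2*.

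Markers of other cell types moved with *Pdgfra* and *Sox10* as well, and their part in the results was not tested. Of 8 neuron or neuroblast markers, 4 were higher in *Pdgfra* cells and 3 in *Sox10* cells. *Dcx*, a microtubule protein gene of migrating neuroblasts, was found in 23.8% of *Pdgfra* cells against 8.32% in culture 1 and in 14.8% against 2.14% in culture 2. Of 7 radial glia markers, 3 were lower in *Pdgfra* cells and 4 in *Sox10* cells, with 0 higher in either. Of 4 astrocyte markers, 0 passed in *Pdgfra* cells, with a median difference of -12.9 points in culture 1 and -2.08 in culture 2. In *Sox10* cells *S100b* was higher (47.8% against 17.0%, and 32.1% against 7.04%). *Aldh1l1*, *Apoe* and *Slc1a2* instead differed by -21.2, -21.7 and -9.60 points in *Sox10* cells of culture 1. In culture 2 they differed by -0.522, 0.303 and -0.361 points. No marker fixed for ventral telencephalon, pericytes, fibroblasts, endothelium, microglia, red cells or ependyma is a row of the table, so that *Pdgfra* in fibroblasts and *Cspg4* in pericytes were not checked here.

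**Figure D3:**
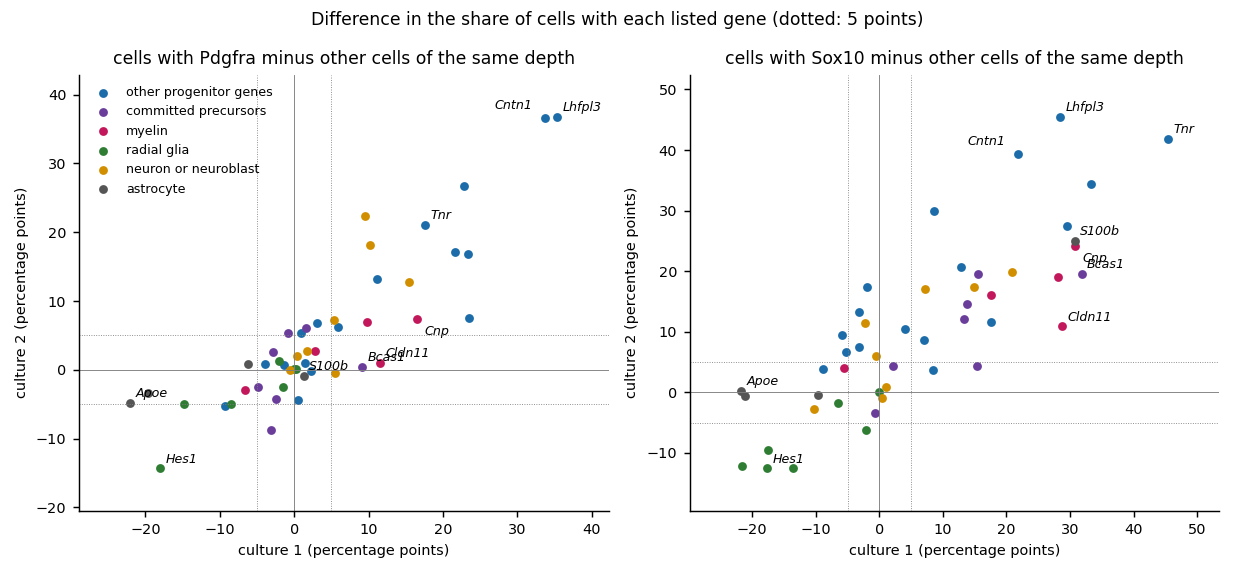
Difference in the share of cells with each listed gene between cells with *Pdgfra* (left) or *Sox10* (right) and other cells of the same depth, in culture 1 (x axis) against culture 2 (y axis), in percentage points; each point is 1 gene, coloured by list. *Lhfpl3* and *Cntn1* stand furthest out with *Pdgfra*, and myelin genes such as *Cnp* and *Cldn11* lie further out with *Sox10* than with *Pdgfra*.

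The genes most like each member by correlation over cells of log2(value + 1), ranked by the lower of the 2 cultures, include several of the genes above. All cells of a culture share a library and differ in depth, so the values are descriptions. For *Pdgfra* they were *Lhfpl3* (r = 0.315 over 5748 cells and 0.206 over 7057 cells), *Sh3gl3*, *Pcdh15*, *Cntn1* and *Sox9*. For *Sox10* they were *Lims2* (r = 0.297 and 0.348), *Mbp* (0.3 and 0.29), *Tnr*, *Sh3gl3* and *Dscaml1*. Those of *Olig2* (*Epn2*, *Rev3l*, *Ncald*, *Tcf4* and *Pik3r1*) reached at most 0.229 in either culture, those of *Cspg4* (*Pcdh15*, *Cspg5*, *B3gat2*, *Kcnip3* and *Scrg1*) at most 0.129, and those of *Nkx2-2* (*Tcf12*, *Rev3l*, *Gria2*, *Lmo1* and *Pantr1*) at most 0.0985. Correlations this weak are no finding.

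Clustering left out the members and the 428 genes with an R² of the cell-cycle position of 0.05 or more in both cultures. The 6 clusters are called by number. They still differed in cell-cycle genes, as *Hmgb2*, *Cenpa* and *Rrm2* were among the leading genes of cluster 2. *Olig2* was found in 90.2 to 99.6% of cells of clusters 1 to 5 in each culture, and in 80.8% and 74.5% of cluster 6. No cluster lacked *Olig2*, so no cell type could serve as a background for free RNA, and its part in the *Olig2* share was not tested. *Nkx2-2* was found in much the same share of cells of clusters 1 to 4, with 24.5 to 28.3% for culture 1 and 23.4 to 28.3% for culture 2. Over these 4 clusters such a like share cannot be told apart from free RNA. It was 44.8% and 37.4% in cluster 5 and 42.3% and 17.9% in cluster 6. *Cspg4* ranged from 7.21 to 17.4% and from 9.47 to 16.0% over the same clusters.

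*Pdgfra* had its highest share in both cultures in cluster 3, whose leading genes include *Basp1*, *Lhfpl3*, *Pclaf*, *Pantr1*, *Nnat*, *Ncald* and *Hmgb2*. *Pclaf* and *Hmgb2* were also leading genes of cluster 2, beside *Cenpa*, *Rrm2* and *Cdc20*. *Pdgfra* was found in 25.5% of cells of cluster 3 in culture 1 and 9.43% in culture 2. In cluster 1 it was found in 1.6% and 0.356%, and cells there were deeper (median UMIs of 21619 and 14940 against 13979 and 12929). *Sox10* was found in 9.27% and 3.58% of cells of cluster 3, against 0.982% and 0.0508% in cluster 1. Cluster 3 held 1457 cells of culture 1 (25.3%) and 530 of culture 2 (7.51%), and thus 73.8% and 39.1% of the *Pdgfra* cells of each culture. Of cells of cluster 3, 81.9% and 62.8% held *Lhfpl3*. Of the 10 progenitor markers, only *Pdgfra*, *Cspg4*, *Sox10*, *Lhfpl3* and *Lnx1* are rows of the table, so the cluster was given no cell type name.

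Cluster 5 held the deepest cells, with median UMIs of 34107 and 23892, and all 5 members were frequent in it. *Pdgfra* was found in 14.4% and 4.71% of its cells, *Sox10* in 10.4% and 3.14%, *Cspg4* in 25.6% and 23.1%, and *Nkx2-2* in 44.8% and 37.4%. In culture 2 this cluster held 28 of the 53 *Sox10* cells.

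Cluster 6 had different leading genes in the cultures. In culture 1 it held 78 cells led by *Sirt2*, *Map1b*, *S100b*, *Bcas1* and *Mbp*. Of these, 51.3% held *Sox10*, 42.3% *Nkx2-2*, 6.41% *Cspg4* and 3.85% *Pdgfra*, and 70.5% held *Mbp*, 78.2% *Cldn11* and 85.9% *Bcas1*. Where these cells fell depended on the clustering. At Leiden resolutions of 0.3 and 1.0, 68 of the 78 cells formed a cluster with 1 cell of culture 2, and 58.8% of the 68 held *Sox10*. With cell-cycle genes kept, 67 of the 78 fell in a cluster of 1399 cells of culture 1, of which 12.3% held *Sox10*. At the resolution used here cluster 6 also took in 196 cells of culture 2, with a median of 8212 UMIs, and 0.51% of them held *Sox10* and 0.51% *Mbp*. The 40 *Sox10* cells of cluster 6 made up 16.3% of those of culture 1. Without cluster 6, *Sox10* was found in 3.62% of cells of culture 1 and 0.758% of culture 2, and in 14.0% and 14.4% of *Pdgfra* cells against 3.46% and 1.05% of others of the same depth.

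**Figure D4:**
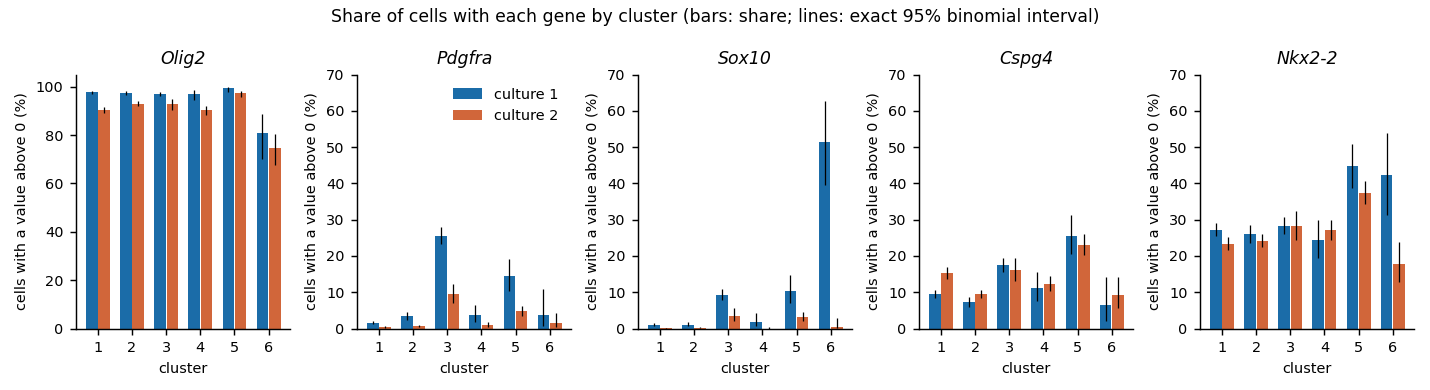
Share of cells with a value above 0 (y axis, percent, with exact 95% binomial intervals) by cluster (x axis) in culture 1 (blue) and culture 2 (orange); the *Olig2* panel has its own scale. *Olig2* is above 74% in every cluster, *Pdgfra* is highest in cluster 3, and *Sox10* reaches 51.3% in cluster 6 of culture 1 and 0.51% in that of culture 2.

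Along the deposited cell-cycle position, an angle from 0 to 2π on which S phase begins near 0.5π and mitosis follows beyond π, *Olig2* dipped where cells pass from S phase to G2. Its mean log2(value + 1) was 2.67 at 0 to 0.25π in culture 1 and 2.58 in culture 2, 2.13 and 2.08 at 0.75π to π, and 2.59 and 2.58 at π to 1.25π. The periodic loess line ranged over 0.42 in culture 1 and 0.31 in culture 2, with its minimum at 0.76π and 0.66π. With the effect of total UMIs taken out the range was 0.35 and 0.31, and with a span of 0.5 in place of 0.3 it was 0.26 and 0.04. Total UMIs were highest near the same position, at 0.89π and 0.915π. The share of cells with *Olig2* varied little, between 95.3 and 98.0% over the 8 classes of culture 1 and between 88.4 and 96.2% in culture 2.

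The position accounted for little of the variation of any member. The R² of 2 harmonics of the position was 0.0412 and 0.0155 for *Olig2* and at most 0.012 for the others. Of all 10666 genes, 428 reached 0.05 in both cultures (4.01%), and 0 of the 5 members did. The loess lines of the other members ranged over 0.02 to 0.08 on the log2 scale. *Pdgfra* was least often found at 1.75π to 2π, in 3.52% of 1789 cells of culture 1 and in 1.05% of 3149 cells of culture 2. It was most often found at π to 1.25π in culture 1 (14.9%) and at 0.5π to 0.75π in culture 2 (3.24%). *Sox10* was found in 1.18 to 5.22% of cells of a class in culture 1 and in 0.358 to 1.28% in culture 2. *Nkx2-2* was most often found at π to 1.25π in both cultures, in 33.1% and 30.9% of cells, where total UMIs were also high (medians of 20527 and 17813).

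**Figure D5:**
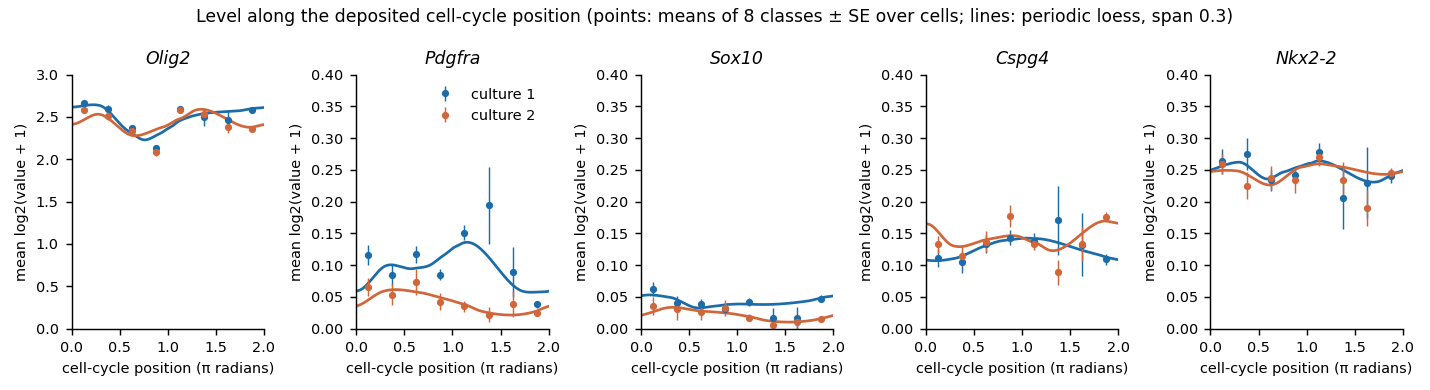
Mean log2(value + 1) (y axis) in 8 classes of cell-cycle position (x axis, in π radians; points with standard errors over cells) and periodic loess lines, in culture 1 (blue) and culture 2 (orange); the *Olig2* panel has its own scale, and levels are not comparable between cultures. *Olig2* is lowest at 0.75π to π, with 2.13 and 2.08, and the lines of the other members stay within 0.08.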

How the data were processed

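Single-cell RNA-seq of 2 replicate cultures was analysed from the deposited tables. By the labels and the methods, reads were quantified by the authors with Alevin (Salmon 1.3.0) on GRCm38 into spliced and unspliced molecules. The authors took the spliced ones as expression and removed outlying cells (by UMIs, genes, mitochondrial share and doublet score) and rarely expressed genes. Seurat 3.2.2 is also named. On the Chromium kit (version 2 by the labels) and the glucose (1.42 g by the labels) the methods differ. The deposited expression values are a signal, linear and scaled by the authors to the depth of the cell. Total UMIs, as deposited by the authors, are sums of estimated counts. The per-cell position on the cell cycle (radians) and its stages are other values from the authors.

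Whole counts were not recovered, because steps were not exact multiples, so no count model or thinning was used. How the step sizes arose is not given in the sources used here. A cell held a gene when its value was above 0, and levels are log2(value + 1), with a pseudocount of 1. Cells with and without a member were compared within 10 classes of total UMIs. Loess lines used degree 2, a span of 0.3, tripled data and 401 positions (R 4.3.3). Clusters came from Leiden (leidenalg 0.10.2, resolution 0.5, 15 neighbours, 30 PCs, 2000 variable genes) in Python 3.11.15 with scikit-learn 1.9.0. All deposited cells were used, and no doublets were called here. Every per-sample column was mapped to a culture. Coordinates are from GENCODE vM21 on GRCm38, and 10662 of the 10666 gene IDs had a symbol. The R² and share steps were tested on simulated data. The simulated cells with a member were a minority larger than that of *Pdgfra* or *Sox10* in either culture, and their share rose steadily with depth. The test of the share step therefore covers neither these nor *Olig2*, which most cells held.

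The members and lists were chosen with earlier results of these data known. Beside the members, the genes named are up to 6 of each list, the 5 most correlated with each member, and leading genes of each comparison, which were chosen after their values were seen. The comparison of all genes within depth classes and the study of steps were also chosen after seeing the data. Alternatives were each culture left out, a common range of depth, a value of at least 1, other spans, pseudocounts, thresholds, correlations and clusterings.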

Additional observations from a re-analysis of the deposited data

How the results depend on the processing

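With 1 condition and 2 cultures nothing could be tested, the shares of *Olig2*, *Nkx2-2* and *Cspg4* were highest in the deepest cells, and a zero is not absence. No paired analysis of conditions was possible because there is only 1 group, and cells with and without a member were compared within each culture. Of 274 values under alternatives for 43 results, 173 were counted as unchanged, 86 as moved and 15 as changed in sign. Counts of genes have no spread between cultures, so their sorting does not rest on it. Each other value is a mean of both cultures unless a culture was left out, and moved means by more than that spread. With 2 cultures, either one alone always lies within the spread around their mean. For these values, leaving a culture out could therefore reveal a change of sign but not a move. Where no cause is named the cause was not tested. Share of cells with a member: in the common range of depth *Cspg4* was found in 11.3% and *Nkx2-2* in 25.7% of cells, with a value of at least 1 in 7.03% and 9.33%, and without the deepest 10% of cells, chosen after seeing the data like the other removals of cells, *Nkx2-2* was found in 25.4%. Within the wide spread between cultures, the mean for *Pdgfra* went from 5.29% to 4.36% in the common range and 2.92% with a value of at least 1, and that for *Sox10* from 2.51% to 1.62% and 1.37%.

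Differences between cells with and without *Olig2*, in percentage points, were unstable. For *Pdgfra* they were 4.54 in the common range of depth, 0.709 with a value of at least 1, 0.203 in cells staged G1 by cyclone, 1.93 within depth classes and -0.183 without the deepest 10% of cells. For *Sox10* they were -2.78 to 0.628 with 1 culture left out, -3.51 in the common range and 1.09 without cluster 6. For *Cspg4* they were -0.983 to 1.08 with 1 culture left out, -1.97 in the common range, -2.66 with a value of at least 1, -0.206 in G1 cells, -4.07 within depth classes, -1.05 without the deepest 10% of cells and -0.865 without cluster 6. For *Nkx2-2* they were 1.74, 0.733 and -2.36 for the common range, a value of at least 1 and depth classes, and 4.24 and 6.10 without the deepest 10% of cells and without cluster 6. Those of these values taken within depth classes rest heavily on the few cells of the deepest class without *Olig2*. With *Pdgfra*, the difference in *Cspg4* was 13.3 in the common range, 8.87 with a value of at least 1, 10.8 within depth classes and 8.64 without the deepest 10% of cells. That in *Nkx2-2* was -2.83 to 6.16 with 1 culture left out, -4.97 in the common range, -0.0475 within depth classes and -0.231 without the deepest 10% of cells. With *Sox10*, the difference in *Nkx2-2* was 20.5 in the common range and 8.16 without the deepest 10% of cells, and that in *Cspg4*, 18.1 as reported, was 9.61 in the common range, 10.6 with a value of at least 1 and 11.6 without the deepest 10% of cells.

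The count of genes that vary with the position was 890 at a threshold of 0.02 and 240 at 0.1, which follows from the threshold. Genes by cells with a member: without the deepest 10% of cells, 51 were higher and 18 lower with *Olig2* and 4 higher with *Cspg4*. At 10 points in place of 5 the counts were 7 and 0 for *Olig2*, 107 and 93 for *Pdgfra*, 180 and 121 for *Sox10* and 0 higher for *Cspg4*. Without depth classes 1667 were higher and 1 lower with *Olig2* and 241 higher with *Cspg4*. The lowest *Olig2* share of a cluster was 94.3% at a resolution of 0.3, 88.6% at 1.0, 93.6% with cell-cycle genes kept and 92.8% in the common range. The highest *Cspg4* share was 18.4% at a resolution of 0.3, 17.6% with cell-cycle genes kept, 16.4% in the common range and 13.0% with a value of at least 1, and the highest *Nkx2-2* share was 32.6%, 30.4% and 19.8% at a resolution of 0.3, in the common range and with a value of at least 1. The highest *Sox10* share, a mean of 25.9% over a very uneven pair of cultures, was 4.35% at a resolution of 0.3, 6.53% at 1.0, 8.41% with cell-cycle genes kept, 4.66% in the common range and 20.8% with a value of at least 1. It counts only clusters with 50 or more cells of each culture, which leaves out the *Sox10*-rich cluster at resolutions of 0.3 and 1.0. The range of the *Olig2* loess line was 0.59 at a span of 0.1, 0.15 at 0.5, 0.50 with a pseudocount of 0.1 and 0.59 with 2 harmonics.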
